A study of Mus musculus with 16 samples.

Results

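The transcripts of 10 NF-kB genes were followed in whole mouse brain: Nfkb2, Rel and Relb, which encode subunits, Nfkbia, Nfkbib and Nfkbie, which encode the classical inhibitors, Nfkbiz and Bcl3, which encode nuclear relatives of the inhibitors, and Tnfaip3 and Birc3, which encode feedback regulators. They were chosen by name, with earlier results of these data known, and each was read by the 1 probe set whose only gene symbol in the platform annotation is that gene, so these are 10 of the 19938 genes measured. The 16 Affymetrix Mouse Gene 1.0 ST arrays hold brain RNA of 8-week-old male mice in 4 groups of 4. The groups are mice labelled TNF knockout 24 h after permanent middle cerebral artery occlusion (pMCAO, a model of ischaemic stroke), naive mice labelled TNF knockout, C57BL/6 mice 24 h after pMCAO, and naive C57BL/6 mice. No group had a sham operation, so effects of surgery and of occlusion cannot be told apart. The labels describe neither the TNF allele nor its background, and they number the arrays of a group without stating that each came from a separate animal, so p-values measure only the spread between these arrays. All C57BL/6 arrays carry sample names with the prefix KL42 and all others KL76 or KL82, a code the labels do not explain, so genotype and prefix cannot be told apart.

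NF-kB is a family of dimeric transcription factors that inhibitor proteins hold in the cytoplasm of resting cells. Signals from receptors for TNF, interleukin 1 and microbial products activate a kinase complex that marks the inhibitors for destruction, and the freed dimers enter the nucleus. Several of the genes they switch on encode their own restraints, and in brain the pathway is best known from microglia, astrocytes and endothelial cells responding to injury and infection.

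Values are log2 expression as deposited, on which a difference of 1 is a doubling, and levels of different probe sets are not compared with each other. Differences were fitted with limma over all 19938 genes and are given ± SE. A gene is said to have risen or fallen where the Benjamini-Hochberg adjusted p was under 0.05 (two-sided). Array medians were 6.01 to 6.05, arrays of 1 group correlated at 0.991 to 0.996, and their number limits the precision. Tnf, the gene named in the knockout label, went against that label. It read 6.75, 6.60, 6.99 and 6.88 in stroke arrays and 6.14, 6.46, 6.47 and 6.58 in naive arrays labelled TNF knockout, against 5.64, 5.28, 5.67 and 5.68 in C57BL/6 stroke arrays and 5.01, 5.72, 5.08 and 5.41 in C57BL/6 naive arrays. The labels do not say which stretch of Tnf was deleted or whether the probes fall inside it, and probes outside it would be no check, so the groups are called by their labels throughout.

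RefSeq (GRCm38.p6) promoter windows, each 250 bases before to 50 bases after a transcript start, were at hand for 8 of the 10 genes. A window of each of the 2 genes that rose (Bcl3 and Nfkb2), of the classical inhibitor gene Nfkbia and of the subunit gene Rel, which was not called in any comparison, is shown so that the binding-site letters can be read beside the values. Each runs 5′ to 3′ on the strand of its gene, and capitals mark stretches that match the NF-kB consensus decamer on either strand, overlapping matches joined.
Bcl3 (chr7:19822706-19823005, minus strand): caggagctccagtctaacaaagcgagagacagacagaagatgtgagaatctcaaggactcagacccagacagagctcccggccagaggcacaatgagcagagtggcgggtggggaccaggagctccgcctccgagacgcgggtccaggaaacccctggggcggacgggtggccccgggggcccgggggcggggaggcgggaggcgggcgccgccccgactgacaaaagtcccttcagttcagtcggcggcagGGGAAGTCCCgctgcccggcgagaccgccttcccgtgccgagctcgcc
Nfkb2 (chr19:46304487-46304786, plus strand): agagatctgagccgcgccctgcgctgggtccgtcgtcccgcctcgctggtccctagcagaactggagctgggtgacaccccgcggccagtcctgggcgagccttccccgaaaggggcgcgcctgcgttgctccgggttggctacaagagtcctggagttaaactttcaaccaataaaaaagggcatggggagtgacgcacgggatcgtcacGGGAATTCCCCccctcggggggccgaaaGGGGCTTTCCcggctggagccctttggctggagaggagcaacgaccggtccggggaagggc
Nfkbia (chr12:55492598-55492897, minus strand): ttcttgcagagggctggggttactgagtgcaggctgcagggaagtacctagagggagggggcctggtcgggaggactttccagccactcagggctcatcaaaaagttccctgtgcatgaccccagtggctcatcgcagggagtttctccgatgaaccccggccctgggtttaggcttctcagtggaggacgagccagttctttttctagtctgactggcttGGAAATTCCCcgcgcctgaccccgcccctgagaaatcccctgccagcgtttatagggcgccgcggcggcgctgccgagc
Rel (chr11:23770920-23771219, minus strand): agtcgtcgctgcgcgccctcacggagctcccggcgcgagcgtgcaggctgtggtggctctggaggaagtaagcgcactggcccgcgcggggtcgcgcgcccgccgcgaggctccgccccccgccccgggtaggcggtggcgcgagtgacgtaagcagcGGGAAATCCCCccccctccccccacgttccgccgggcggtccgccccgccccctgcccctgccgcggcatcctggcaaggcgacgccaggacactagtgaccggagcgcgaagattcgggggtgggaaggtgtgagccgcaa
The Bcl3 window holds GGGAAGTCCC, whose first letter is base 3 of the transcript. In the Nfkb2 window 2 separate stretches begin 39 and 11 bases before the start, the Nfkbia window holds GGAAATTCCC at 29 bases before it, and the Rel window holds 1 stretch that begins 92 bases before it. Matches were present for 6 of the 8 genes, those of Nfkbie and Tnfaip3 included, and in 8 of their 11 windows, a pair of which overlap. Of all 32841 mouse windows of this length, 4.51% hold a match. A match describes letters and does not show binding, and Rel held matches as did Bcl3 and Nfkb2.

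The first comparison asks which NF-kB genes differ 24 h after stroke from naive brain. In the arrays labelled TNF knockout Bcl3 rose 1.70-fold and Nfkb2 1.31-fold, and the other 8 genes did not pass the test. These were 2 of 10 genes, both higher, where 0.642% of all genes were called in either direction and 0.537% were called higher. At an unadjusted p under 0.05 with limma there were 6 of the 10, beside 8.39% of all genes. In C57BL/6 arrays 0 of the 10 passed with limma, where 1.68% of all genes were called and 1.34% called higher, and 2 of the 10, Nfkb2 and Bcl3 again, had an unadjusted p under 0.05, as did 17.1% of all genes. Averaged over both genotypes, Bcl3 rose 1.48-fold and Nfkb2 1.28-fold, 2 of 10 genes against 2.80% of all genes called and 1.78% called higher. The median difference of the 10 genes was 0.24 in the arrays labelled TNF knockout, beside 0.00 for all genes, and 0.13 in C57BL/6, beside -0.01 for all genes. In whole brain, a change in the number of cells of a type and a change of RNA per cell cannot be told apart.

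**Figure D1:**
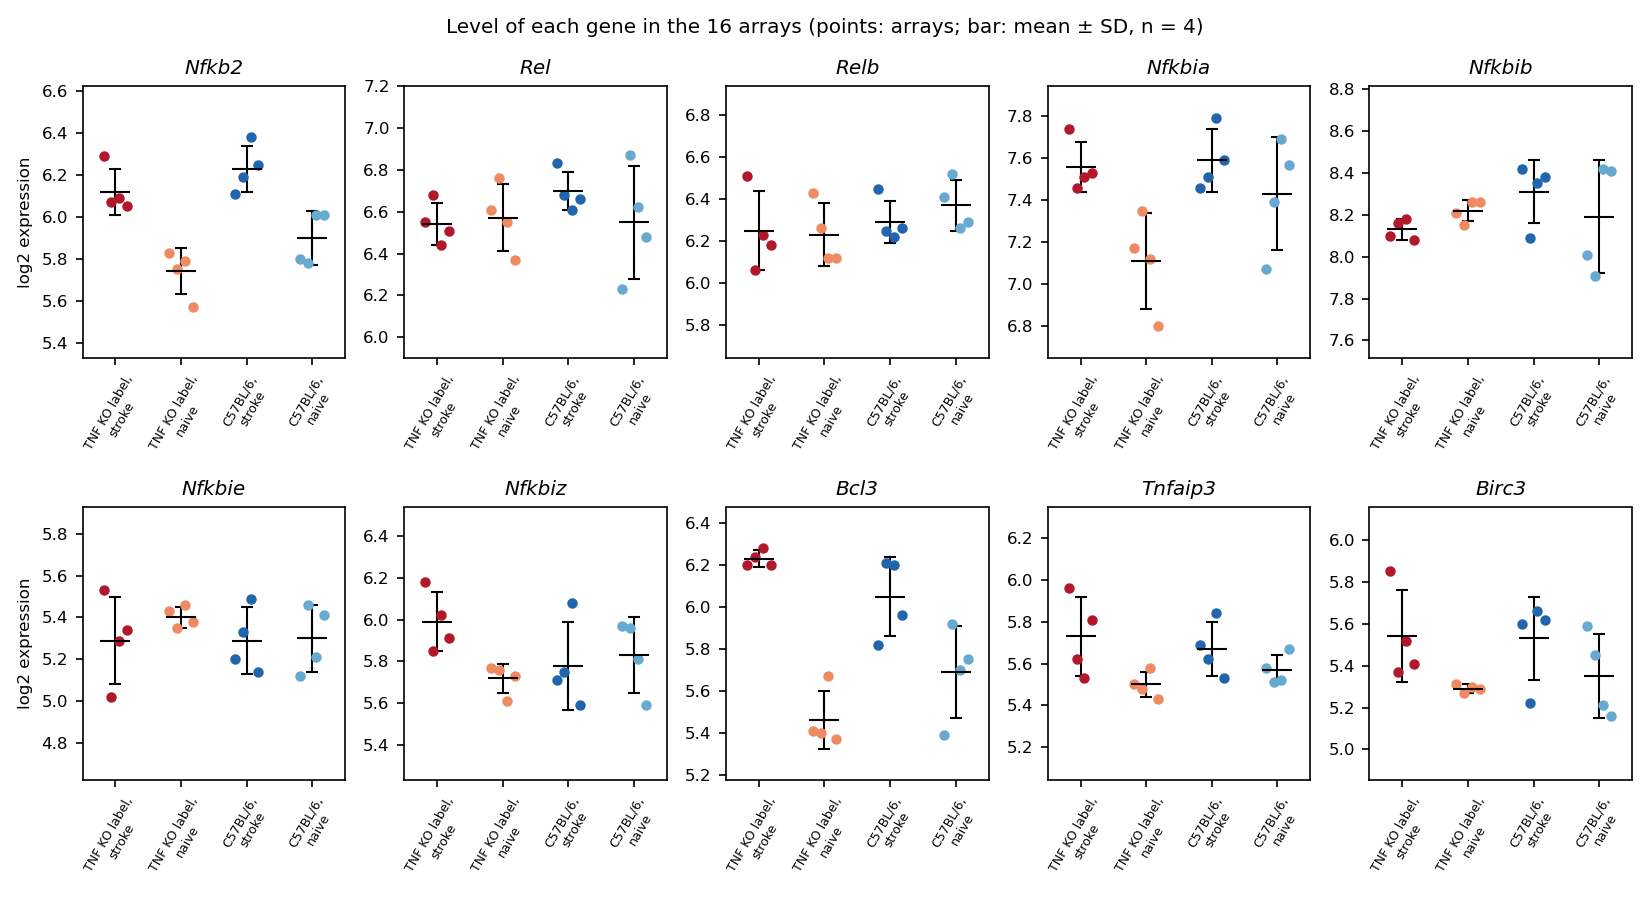
Log2 expression (vertical axes, each spanning the same width) of the 10 genes in the 4 groups, stroke left of naive within each label, with points for arrays and bars for the mean ± SD (n = 4). The Bcl3 and Nfkb2 panels show stroke arrays labelled TNF knockout wholly above the naive arrays with that label, while Rel, Relb, Nfkbib and Nfkbie overlap between all groups.

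Among the subunit genes, Nfkb2 encodes a precursor that acts as an inhibitor until it is cut to a subunit of the non-canonical pathway. It read 6.29, 6.07, 6.09 and 6.05 in stroke arrays labelled TNF knockout, against 5.83, 5.75, 5.79 and 5.57 in the naive arrays with that label. In C57BL/6 brain it read 6.11, 6.19, 6.38 and 6.25 after stroke, against 5.80, 5.78, 6.01 and 6.01 in naive arrays. Every stroke array thus lay above every naive array of its own label, in both genotypes. Nfkb2 was the only one of the 10 genes without overlap in C57BL/6 arrays, where 5.03% of all genes had all stroke arrays above all naive arrays. The difference was 0.39 ± 0.09 in the arrays labelled TNF knockout (limma, adjusted p = 0.046) and 0.33 ± 0.09 in C57BL/6 (adjusted p = 0.063, 95% interval 0.15 to 0.52), and 0.36 ± 0.06 averaged over both (adjusted p = 0.0022). The averaged call held in all 16 fits that left out 1 array. The call in the arrays labelled TNF knockout held in only 3 of them, those without C57BL/6 naive array 2 or C57BL/6 stroke array 1 or 3. Without any 1 of the 8 arrays labelled TNF knockout the adjusted p for Nfkb2 lay between 0.069 and 0.17, highest without stroke array 1, and without C57BL/6 naive array 1, 3 or 4 or C57BL/6 stroke array 2 or 4 between 0.050 and 0.062.

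Rel encodes c-Rel, a subunit best known from lymphocytes and myeloid cells, and Relb encodes the usual partner of the cut Nfkb2 product. Rel averaged 6.54 ± 0.10 in stroke arrays and 6.57 ± 0.16 in naive arrays labelled TNF knockout (SD, n = 4 each), a difference of -0.03 ± 0.11 with a 95% interval of -0.26 to 0.21. In C57BL/6 brain Rel averaged 6.70 ± 0.09 after stroke and 6.55 ± 0.27 in naive arrays, a difference of 0.14 ± 0.11 with an interval of -0.09 to 0.38. Relb differed by 0.01 ± 0.10 in the arrays labelled TNF knockout (interval -0.20 to 0.22) and by -0.08 ± 0.10 in C57BL/6 (interval -0.28 to 0.13). Groups overlapped for both genes in both genotypes, and these intervals bound what the arrays could have missed.

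Bcl3 encodes a nuclear protein of the inhibitor family that binds subunit dimers on DNA and can activate or repress their targets. It read 6.20, 6.24, 6.28 and 6.20 in stroke arrays labelled TNF knockout, against 5.41, 5.40, 5.67 and 5.37 in the naive arrays with that label. In C57BL/6 brain it read 5.82, 6.21, 6.20 and 5.96 after stroke, against 5.39, 5.92, 5.70 and 5.75 in naive arrays. The stroke arrays labelled TNF knockout were all higher than the naive ones and lay close together, while C57BL/6 stroke array 1 lay below C57BL/6 naive array 2. The difference was 0.77 ± 0.11 in the arrays labelled TNF knockout (limma, adjusted p = 0.00066), the largest of the 10 genes, and 0.36 ± 0.11 in C57BL/6 (adjusted p = 0.11, interval 0.13 to 0.58). Averaged over both it was 0.56 ± 0.08 (adjusted p = 0.00017). The call for Bcl3 in the arrays labelled TNF knockout held in all 16 fits that left out 1 array, with adjusted p from 0.00024 to 0.0046. In C57BL/6 arrays, leaving out stroke array 1 gave 2 calls, Bcl3 (0.43, adjusted p = 0.038) and Nfkb2 (0.37, adjusted p = 0.036).

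Nfkbiz encodes another nuclear relative of the inhibitors, a co-activator that is itself induced by interleukin 1 and microbial signals. It read 6.18, 5.85, 6.02 and 5.91 in stroke arrays labelled TNF knockout, against 5.77, 5.76, 5.61 and 5.73 in naive arrays with that label. Those groups did not overlap, but the difference of 0.27 ± 0.11 did not pass the test (limma, adjusted p = 0.45). In C57BL/6 arrays Nfkbiz averaged 5.78 ± 0.21 after stroke and 5.83 ± 0.18 in naive brain (SD, n = 4 each), with overlapping groups and a difference of -0.05 ± 0.11.

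Nfkbia encodes the inhibitor that is destroyed and resynthesised within an NF-kB response. It read 7.74, 7.46, 7.51 and 7.53 in stroke arrays labelled TNF knockout, against 7.17, 7.35, 7.12 and 6.80 in naive arrays with that label. In C57BL/6 brain it read 7.46, 7.51, 7.79 and 7.59 after stroke, against 7.07, 7.39, 7.69 and 7.57 in naive arrays. Groups were apart under the TNF knockout label, where naive array 4 was lowest, and overlapped in C57BL/6. The difference of 0.45 ± 0.13 in the arrays labelled TNF knockout did not pass the test (limma, adjusted p = 0.17, interval 0.19 to 0.71), nor did that of 0.16 ± 0.13 in C57BL/6 (adjusted p = 0.56) or the average of 0.30 ± 0.09 (adjusted p = 0.078). Without C57BL/6 naive array 3 the average for Nfkbia was 0.35 and passed (adjusted p = 0.045).

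Nfkbib and Nfkbie, which encode further classical inhibitors, were not called under either label. Nfkbib averaged 8.13 ± 0.05 in stroke arrays and 8.22 ± 0.05 in naive arrays labelled TNF knockout, and 8.31 ± 0.15 in stroke and 8.19 ± 0.27 in naive C57BL/6 arrays (SD, n = 4 each). Its difference was -0.09 ± 0.11 under the TNF knockout label (interval -0.31 to 0.13) and 0.12 ± 0.11 in C57BL/6 (interval -0.10 to 0.34). Nfkbie differed by -0.11 ± 0.11 in the arrays labelled TNF knockout (interval -0.33 to 0.11) and by -0.01 ± 0.11 in C57BL/6 (interval -0.23 to 0.21). Neither gene passed the test in any contrast, and groups overlapped throughout.

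The feedback genes gave positive differences that did not pass. Tnfaip3, whose product edits ubiquitin chains to switch the pathway off, read 5.96, 5.62, 5.53 and 5.81 in stroke arrays labelled TNF knockout, against 5.50, 5.48, 5.58 and 5.43 in naive arrays with that label. Stroke array 3 lay below naive array 3, so the groups overlapped, and the difference was 0.23 ± 0.09 (limma, adjusted p = 0.46), beside 0.10 ± 0.09 in C57BL/6 (adjusted p = 0.62). Birc3, a ubiquitin ligase gene of TNF receptor complexes, read 5.85, 5.37, 5.52 and 5.41 in stroke arrays labelled TNF knockout, against 5.31, 5.27, 5.30 and 5.29 in naive arrays with that label. Those groups did not overlap, although stroke array 2 exceeded the highest naive array only narrowly, and the difference was 0.24 ± 0.12 (adjusted p = 0.60), beside 0.17 ± 0.12 in C57BL/6 (adjusted p = 0.47). In all, 5 of the 10 genes (Nfkb2, Bcl3, Nfkbiz, Nfkbia and Birc3) had every stroke array above every naive array under the TNF knockout label, against 2.80% of all genes. None of the 10 had every stroke array below every naive array under either label, a pattern of 3.07% of all genes under the TNF knockout label and 3.23% in C57BL/6.

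**Figure D2:**
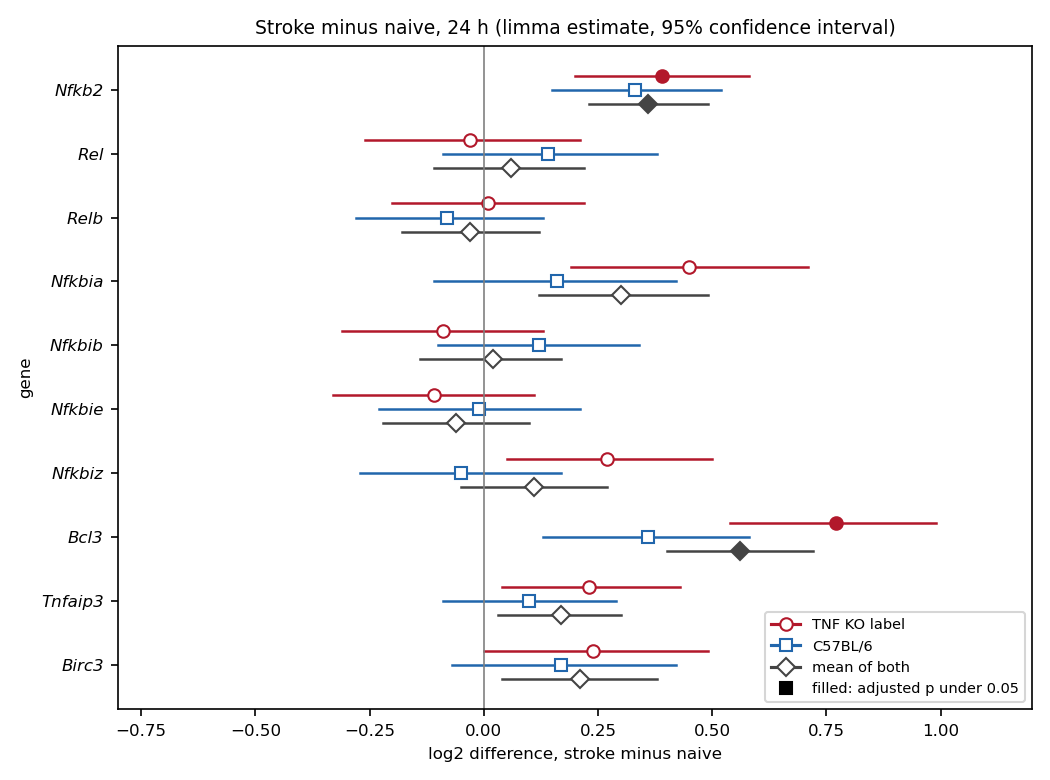
Log2 difference of stroke minus naive (horizontal axis) for each gene, with 95% confidence intervals from limma, for the arrays labelled TNF knockout, C57BL/6 arrays and their average, filled where the adjusted p was under 0.05. Filled points are those of Bcl3 and Nfkb2 under the TNF knockout label (0.77 for Bcl3, 0.39 for Nfkb2) and in the average (0.56 for Bcl3, 0.36 for Nfkb2).

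Arrays labelled TNF knockout came under both prefixes, with 1 stroke and 3 naive arrays under KL76 and 3 stroke and 1 naive arrays under KL82. Within KL76 stroke exceeded naive by 0.71 for Bcl3, and within KL82 by 0.87. For Nfkb2 the difference was 0.50 within each. Nfkbia gave 0.53 within KL76 and 0.70 within KL82. Direction was thus kept for these genes within each prefix, with a single array on 1 side. With the prefix as a term Nfkbia differed by 0.61 (adjusted p = 0.044) and Nfkb2 by 0.50 (adjusted p = 0.012). For Birc3 the difference was 0.56 within KL76 and 0.14 within KL82, and for Nfkbiz 0.47 within KL76 and 0.20 within KL82. Both were larger within KL76, whose single stroke array was stroke array 1.

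That array, stroke array 1 labelled TNF knockout, was the highest of its group in 7 of the 10 genes, while it was highest in 30.5% of all genes. C57BL/6 stroke array 3 was highest of its group in 6 of 10, against 17.0% of all genes. Naive array 4 labelled TNF knockout was lowest in 6 of 10, against 29.5%, with Relb tied with naive array 3. These were the largest counts of highest or lowest genes among the 16 arrays. After group means were removed, 33 of the 45 gene pairs had a positive Pearson r over the 16 arrays, with a median of 0.22 and a range of -0.44 to 0.83. Nfkbia and Nfkb2 gave the highest value, 0.83, and Nfkbie with Tnfaip3 gave 0.64. Values of both genes on an array share its RNA extract, labelling and scan. Correlations of pairs drawn from all genes were not computed beside these, and no test was made of them.

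**Figure D3:**
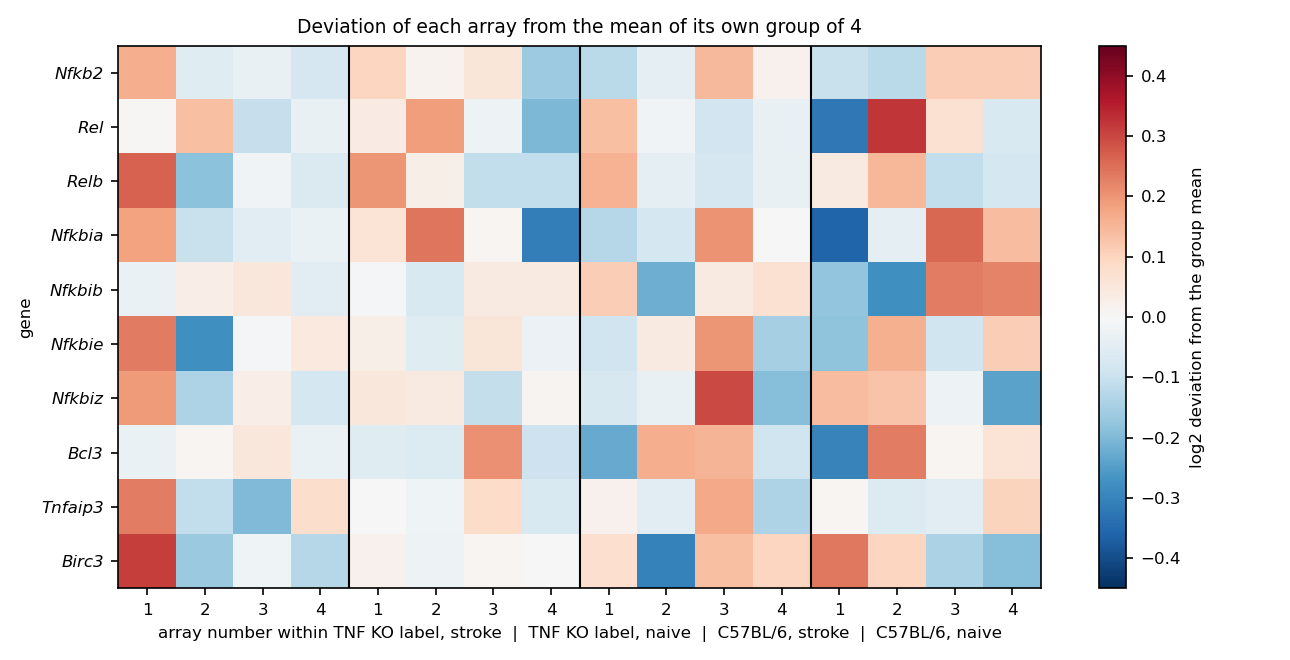
Log2 deviation of each array from the mean of its own group (colour scale, red above and blue below) for the 10 genes (rows), with the arrays of the 4 groups numbered 1 to 4 (columns). The first column, stroke array 1 labelled TNF knockout, is red in most rows, where it was highest of its group in 7 of 10 genes.

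The next comparison sets the arrays labelled TNF knockout against C57BL/6. With limma 0 of the 10 genes passed in naive brain, where 0.386% of all genes were called, and 0 after stroke, where 0.436% were called. At an unadjusted p under 0.05 there were 2 of 10 in naive brain, beside 16.6% of all genes, and 0 of 10 after stroke, beside 11.3%, so neither count is read as a result. Nfkbia averaged 7.11 ± 0.23 in naive arrays labelled TNF knockout and 7.43 ± 0.27 in naive C57BL/6 arrays (SD, n = 4 each), a difference of -0.32 ± 0.13 (adjusted p = 0.22). For Bcl3 the naive difference was -0.23 ± 0.11 (adjusted p = 0.30, interval -0.45 to 0.00). After stroke Nfkbia differed by -0.03 ± 0.13 and Bcl3 by 0.18 ± 0.11 (adjusted p = 0.55). The differences of the 10 genes ran from -0.32 to 0.11 in naive brain, with a median of -0.09, and from -0.18 to 0.21 after stroke, with a median of -0.01. Groups overlapped for all 10 genes in both comparisons, while 4.50% of all genes were higher and 4.15% lower without overlap in naive brain, and 3.04% higher and 2.76% lower after stroke. For comparison, Tnf itself differed in naive brain by 1.11 ± 0.14 (limma, adjusted p = 0.00056), and the difference after stroke was 1.24 ± 0.14 (adjusted p = 0.00010).

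Whether stroke acted differently under the 2 labels was tested as the difference of the stroke changes, TNF knockout label minus C57BL/6. No gene passed, 0 of the 10 and 0 of all 19938 (0.00%), while 2 of the 10 and 1480 of all genes (7.42%) had an unadjusted p under 0.05. For Bcl3 the difference of changes was 0.41 ± 0.15 (adjusted p = 0.58, interval 0.09 to 0.73). For Nfkbiz it was 0.32 ± 0.15 (adjusted p = 0.67), for Nfkbia 0.29 ± 0.18 (adjusted p = 0.72) and for Nfkb2 0.06 ± 0.13 (interval -0.20 to 0.32). The call of Bcl3 under 1 label and not under the other is therefore not shown to be a difference between them.

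**Figure D4:**
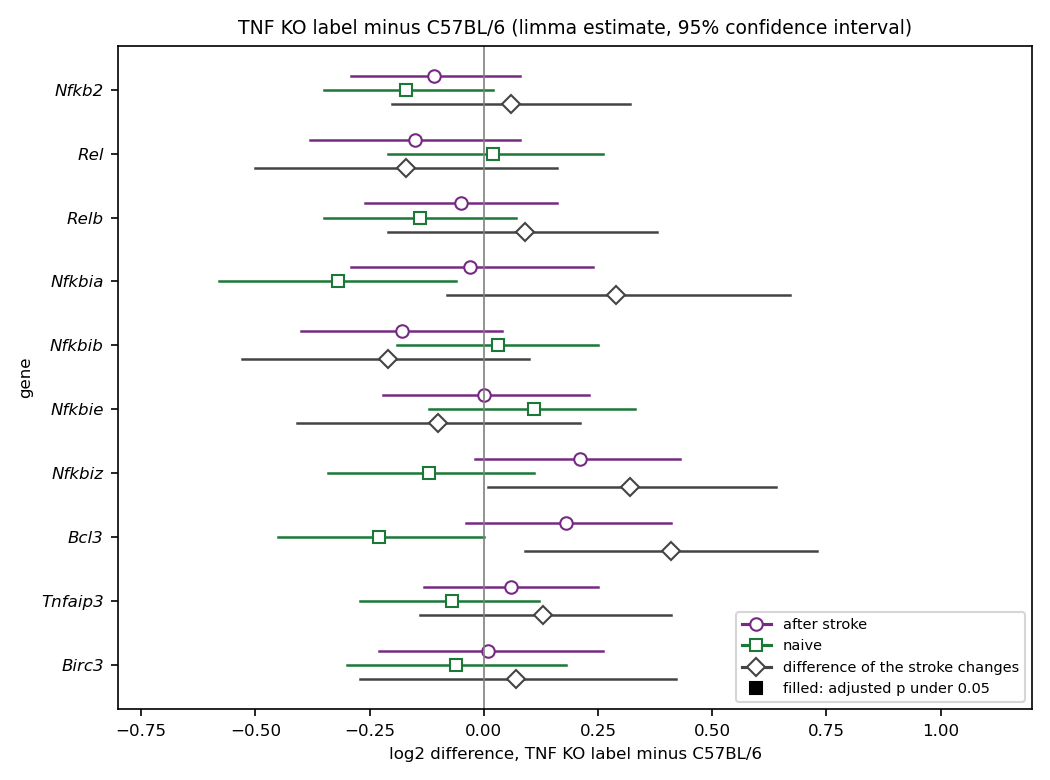
Log2 difference of the TNF knockout label minus C57BL/6 (horizontal axis) after stroke, in naive brain and as the difference of the stroke changes, with 95% confidence intervals from limma. No point is filled, since 0 of the 10 genes had an adjusted p under 0.05, and the intervals of Nfkbia (-0.58 to -0.06) and, narrowly, Bcl3 (unadjusted p = 0.050 by limma) in naive brain and those of Bcl3 and Nfkbiz for the difference of changes leave out 0.

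Other genes of the pathway and target genes outside it were counted from lists of 77 genes in all. Of these 77, 11 rose and 0 fell after stroke under the TNF knockout label. In C57BL/6, 6 rose and 0 fell, and in the average 18 rose and 0 fell. The 77 include 24 target genes, which gave 8 of the 11, 3 of the 6 and 13 of the 18. Of all genes, 0.537% were called higher under the TNF knockout label, 1.34% in C57BL/6 and 1.78% in the average. The median differences of the 77 were 0.07 under the TNF knockout label, 0.11 in C57BL/6 and 0.07 in the average. The listed genes Nfkb1, Il1r1, Traf3, Ripk1, Irak4 and Chuk had no probe set whose only symbol was that gene. They were not measured here and are in none of these counts. Rela, which encodes the main activating subunit, differed by 0.18 ± 0.08 under the TNF knockout label (adjusted p = 0.51) and by 0.07 ± 0.08 in C57BL/6. Of 5 other inhibitor genes 0 passed with limma, and 0 had an unadjusted p under 0.05 for stroke under either label, while Nfkbil1 differed by -0.07 ± 0.09 under the TNF knockout label and -0.11 ± 0.09 in C57BL/6. Of 8 receptor genes 1 rose under each label, the TNF receptor gene Tnfrsf1a, by 0.59 ± 0.10 under the TNF knockout label (adjusted p = 0.0069) and 0.57 ± 0.10 in C57BL/6 (adjusted p = 0.0071). Of 14 adaptor and ubiquitin ligase genes 1 rose under each label, Myd88, the adaptor of Toll-like and interleukin 1 receptors, by 0.55 ± 0.09 under the TNF knockout label (adjusted p = 0.0041) and 0.68 ± 0.09 in C57BL/6 (adjusted p = 0.00051). With limma 0 of 10 kinase genes passed under either label, and 1 of 10 under each label had an unadjusted p under 0.05, beside 8.39% of all genes under the TNF knockout label and 17.1% in C57BL/6. In the average 1 kinase gene rose, Map3k8, by 0.34 ± 0.07 (adjusted p = 0.0090). Of 15 further negative feedback genes 1 rose under each label, Trim30a, by 1.03 ± 0.15 under the TNF knockout label (adjusted p = 0.0012) and 0.62 ± 0.15 in C57BL/6 (adjusted p = 0.045), though the C57BL/6 call was lost in all but 7 of 16 fits without 1 array (adjusted p up to 0.15).

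The 24 target genes outside the pathway are part of the 77 counted above. Of them, 8 rose under the TNF knockout label, 3 in C57BL/6 and 13 in the average, and 0 fell. The shares of all genes called higher were the same 0.537%, 1.34% and 1.78%. Median differences of the target genes were 0.43 under the TNF knockout label, 0.31 in C57BL/6 and 0.39 in the average. Lcn2, which encodes an iron-scavenging secreted protein, read 8.30, 6.93, 7.50 and 7.02 in stroke arrays labelled TNF knockout, against 3.66, 4.52, 4.05 and 4.23 in naive arrays with that label. In C57BL/6 brain it read 6.68, 7.29, 8.44 and 7.01 after stroke, against 4.45, 4.10, 4.77 and 4.09 in naive arrays. All stroke arrays lay above all naive arrays, and Lcn2 rose by 3.32 ± 0.31 on the log2 scale under the TNF knockout label and by 3.16 ± 0.22 in the average (8.95-fold), more than any of the 10 NF-kB genes. The chemokine gene Ccl2 rose by 1.11 ± 0.15 under the TNF knockout label (adjusted p = 0.00057) and 0.62 ± 0.15 in C57BL/6 (adjusted p = 0.048). The adhesion receptor gene Cd44 rose by 0.79 ± 0.13 under the TNF knockout label and 0.60 ± 0.13 in C57BL/6. In fits that left out 1 array the C57BL/6 call held in 3 of 16 for Ccl2 and in 11 of 16 for Cd44. With all arrays kept, the count of 8 was 5 without the dimmest 33.3 percent of genes and 3 at a threshold of 0.01. Target genes among the dimmest were no longer tested or counted in that 5, so it need not be out of 24. The count was 6 to 9 in the other settings tried. Among the fits that left out 1 array, the count of 8 ranged from 3 to 9, that of 3 from 1 to 6 and that of 13 from 12 to 14. The number was 3 without naive array 1 or stroke array 3 labelled TNF knockout, 4 without naive array 3 or stroke array 1 with that label, and 5 without naive array 2 or 4 or stroke array 4 with that label. In C57BL/6 it was 1 without naive array 1, 2 or 4 or stroke array 2 or 3, and 6 without stroke array 1.

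**Figure D5:**
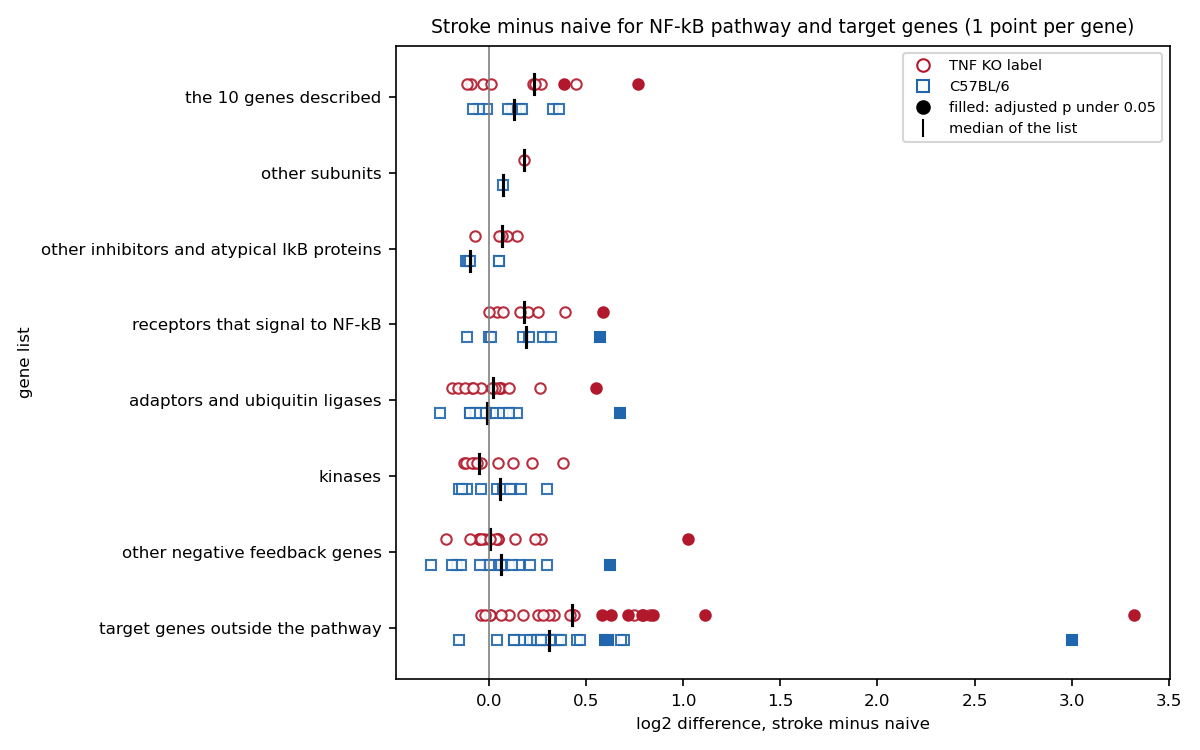
Log2 difference of stroke minus naive (horizontal axis), 1 point per gene, for the 10 genes and the 7 other lists, with the TNF knockout label above C57BL/6 in each list, filled points for an adjusted p under 0.05 and black ticks for list medians. Most regulators lie near 0, and the target genes reach 3.32 for Lcn2.

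Over the 16 arrays the genes whose levels ran most like Nfkb2 were Tgm2 (Pearson r = 0.926), Sdc4 (0.903) and Slc15a3 (0.902), and those most like Bcl3 were Ptx3 (0.915), Tgfbi (0.910) and Ccl9 (0.904). The arrays fall into stroke and naive groups, so these values hold the stroke difference as well as the spread within groups. These genes were picked by likeness to genes that rose after stroke, so their own rises follow in part from that choice. In the average over both genotypes Tgm2, which encodes a protein-crosslinking enzyme, rose by 0.52 ± 0.09 (adjusted p = 0.0030). Ptx3, a secreted pattern recognition protein gene, rose by 1.64 ± 0.18 (adjusted p = 2.0e-05) and the chemokine gene Ccl9 by 0.83 ± 0.10 (adjusted p = 5.0e-05).

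Levels of cell type markers were read beside these results, as means of the log2 values of each list. The neutrophil and monocyte list, 11 of 12 markers measured, lay at 4.09 to 4.32 in stroke arrays and 3.91 to 3.98 in naive arrays labelled TNF knockout, and at 3.97 to 4.35 in stroke and 3.95 to 4.11 in naive C57BL/6 arrays, with 0 markers called. Its level thus was higher after stroke without overlap under the TNF knockout label and overlapped in C57BL/6. The median difference of its markers was similar, 0.23 under the TNF knockout label and 0.20 in C57BL/6. All its levels lay below the array medians of 6.01 to 6.05. The part of this list in the changes of Bcl3 and Nfkb2 was not tested. Resident microglia markers (7 of 8 measured) lay at 5.93 to 6.18 in stroke arrays and 6.19 to 6.37 in naive arrays labelled TNF knockout, and at 6.16 to 6.43 in stroke and 6.26 to 6.32 in naive C57BL/6 arrays, with 1 marker called lower under each label. Endothelial markers (8 of 9) lay at 6.75 to 6.82 after stroke and 6.86 to 7.01 in naive arrays labelled TNF knockout, and at 6.83 to 7.19 after stroke and 6.83 to 7.03 in naive C57BL/6 arrays. Both lists thus lay lower after stroke without overlap under the TNF knockout label and overlapped in C57BL/6, and their part in the results was not tested either. Neuron markers (8 of 8), which check the labelled tissue, lay at 10.59 to 10.68 in stroke arrays and 10.68 to 10.75 in naive arrays labelled TNF knockout, and at 10.62 to 10.66 in stroke and 10.64 to 10.79 in naive C57BL/6 arrays, with 0 markers called. Under the TNF knockout label the neuron list thus also lay at or below its naive levels after stroke. Astrocyte markers (8 of 8) lay at 9.18 to 9.27 after stroke and 9.14 to 9.33 in naive arrays labelled TNF knockout. In C57BL/6 they lay at 9.17 to 9.43 after stroke and 9.09 to 9.21 in naive arrays. Their median difference was -0.10 under the TNF knockout label, with 1 called higher, and 0.09 in C57BL/6, with 2 called higher. The lymphocyte (9 of 10), oligodendrocyte (6 of 7), red blood cell (1 of 7) and choroid plexus (6 of 6) lists had 0 called. They overlapped between stroke and naive arrays under both labels. Under the TNF knockout label the oligodendrocyte list lay at 9.58 to 9.79 after stroke and 9.78 to 9.89 in naive arrays, a narrow overlap. That of the choroid plexus list was also narrow, 7.39 to 7.69 after stroke and 7.66 to 7.80 in naive arrays.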

How the data were processed

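Total RNA of whole brain was hybridised to 16 arrays, 1 per sample, after Trizol extraction and biotin labelling, per the labels' protocols. The authors deposited log2 summaries per probe set, already normalised between arrays. GCOS, GCRMA, Partek and RMA appear in the submitters' processing notes, with no version or role. Scan dates and detection calls were not used here. Of 28944 probe sets 21789 had 1 gene symbol in the platform annotation, 1621 several and 5534 none. Where a gene had several probe sets with that 1 symbol, the one with the highest mean was used, which gave 19938 genes.

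A model of 4 group means over all 16 arrays was fitted by lmFit and eBayes of limma 3.58.1 (R 4.3.3; degrees of freedom 12 residual, 7.52 prior), with Benjamini-Hochberg adjustment over all genes, a threshold of 0.05 and two-sided tests. The fit was also run on simulated data with independent normal noise for each gene. That simulation held no array, prefix or replicate structure, so it cannot check the fit against such structure. The genes described and all lists were chosen with earlier results of these data known. All 10 are named, with Tnf and, from each of 7 pathway lists (77 of 86 entries matched), up to 3 genes of smallest p among those called under 1 label or between labels, or else 1. The 3 genes of highest Pearson r are named for each of the 10 that passed. Of marker entries 64 of 75 matched. Alternatives tried were a threshold of 0.01, quantile normalization or median centring, dropping the dimmest 33.3 percent of genes, averaging a gene's probe sets, array weights, trended and robust variances, a fit of only the 2 groups compared, a replicate block, the prefix as a term, and leaving out each array in turn. Promoter windows came from RefSeq (GRCm38.p6). Figures were drawn with matplotlib 3.10.9 and tables made with pandas 2.3.3 in Python 3.11.15.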

Additional observations from a re-analysis of the deposited data

Results flagged for a closer look

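In 44 groups of 4 arrays (the 10 genes and Tnf in each group), 4 held an array set far apart from the other 3 by Dixon's test at the 95% level, which chance alone passes in about 1 of 20 groups. Nfkb2 read 6.29 in stroke array 1 labelled TNF knockout, against 6.05 to 6.09 in the others (ratio of gap to range 0.833), and without it the difference of Nfkb2 under that label was 0.33 (adjusted p = 0.17). Bcl3 read 5.67 in naive array 3 labelled TNF knockout, against 5.37 to 5.41 in the others (0.867). Birc3 read 5.22 in C57BL/6 stroke array 2, against 5.60 to 5.66 in the others (0.864). Tnf read 5.28 in the same array, against 5.64 to 5.68 in the others (0.900).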

How the results depend on the processing

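Of the 10 genes, 2 were called after stroke under the TNF knockout label. The count was 1, Bcl3, with quantile normalization, a threshold of 0.01, only the groups compared and the replicate block, where Nfkb2 had adjusted p = 0.091, 0.046, 0.071 and 0.056, and it was 1 to 2 in fits without 1 array. With the prefix as a term it was 3, with Nfkbia added (adjusted p = 0.044). In C57BL/6 the count of 0 became 1 without the dimmest 33.3 percent of genes (Nfkb2), with the replicate block (Bcl3) and with the prefix as a term (Nfkb2), and was 0 to 2 in fits without 1 array. The averaged count was 2 or 3, with Nfkbia added without the dimmest genes, with trended and robust variances and with the prefix term (adjusted p = 0.044, 0.042 and 0.022). The causes were not tested. Same-numbered arrays of different groups correlated at -0.07 to 0.34 after group means were removed, 7 of 16 pairs over 0.1. Differently numbered arrays were not correlated for comparison, so these values cannot decide whether the numbers pair the arrays. The main fit used no pairing.

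Small differences that never passed changed sign. Other settings gave Rel 0.04 (prefix) and Relb 0.00 (weights) for stroke under the TNF knockout label, Nfkbie 0.02 (quantile and weights) in C57BL/6 and Relb 0.03 (prefix) in the average. Between labels in naive brain they gave Nfkbib -0.02 and Birc3 0.01 (quantile) and Rel 0.00 (quantile and median centring) and -0.01 (prefix). After stroke they gave Nfkbia 0.05 and Relb 0.01 (prefix), Nfkbie 0.00 (median centring) and -0.03 (weights) and Birc3 -0.01 (weights). Without 1 array, stroke differences under the TNF knockout label ran from -0.09 to 0.03 for Rel and -0.08 to 0.08 for Relb. In C57BL/6 they ran from -0.08 to 0.04 for Nfkbie and -0.15 to 0.01 for Nfkbiz, and in the average from -0.03 to 0.05 for Nfkbib and -0.08 to 0.00 for Relb. Between labels in naive brain they ran from -0.06 to 0.11 for Nfkbib, -0.08 to 0.13 for Rel and -0.12 to 0.02 for Birc3. After stroke they ran from -0.09 to 0.04 for Nfkbia, -0.07 to 0.10 for Nfkbie, -0.14 to 0.01 for Relb, -0.02 to 0.13 for Tnfaip3 and -0.09 to 0.07 for Birc3. Differences of changes ran from 0.00 to 0.15 for Relb, -0.03 to 0.14 for Birc3 and -0.01 to 0.23 for Tnf.

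Over all genes, 128 were called after stroke under the TNF knockout label, against 54 at the 0.01 threshold, 72 with the prefix term, 212 with weights and 69 to 145 without 1 array. In C57BL/6 there were 334, against 76 at the 0.01 threshold, 98 with only the groups compared, 516 with trended and robust variances, 536 without the dimmest genes, 559 with the replicate block and 107 to 639 without 1 array. The average had 559, against 217 at the 0.01 threshold and 332 with the prefix term and 369 to 629 without 1 array. Between labels 77 were called in naive brain (20 to 185 over the settings that keep all arrays, 23 to 138 without 1 array) and 87 after stroke (36 to 164, and 47 to 120 without 1 array). The difference of changes had 0 with limma, with 1480 genes at an unadjusted p under 0.05, and up to 4 over those settings, with trended and robust variances, and up to 3 without 1 array (C57BL/6 naive array 2). In the other comparisons the lowest counts came without stroke array 4 (69) and naive array 1 or 2 (369) labelled TNF knockout and without C57BL/6 stroke array 3 (107), naive array 3 (23) and stroke array 4 (47), and the highest without C57BL/6 stroke array 1, or naive array 1 labelled TNF knockout (138). Without detection calls, a dim gene's missing response cannot be told apart from a probe set near background.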
